A study of Mus musculus with 4 samples.

Results

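The 39 protein-coding Hox genes of the mouse were followed in single cells of the adult bone marrow. The members were all rows of both count matrices whose symbol was Hoxa, Hoxb, Hoxc or Hoxd followed only by a number, which gave 39 of 32285 genes. They comprised 11 genes of the Hoxa cluster, 10 of the Hoxb cluster, 9 of the Hoxc cluster and 9 of the Hoxd cluster. The cells came from 2 male mice of 3 months of age with the genotype Tppp3CreER LSLTdTomato, in which tamoxifen at postnatal days 0 and 3 let the Cre recombinase switch on the tdTomato reporter in cells then using the Tppp3 promoter. All cells were sorted as lineage-negative, Sca-1-positive and Kit-positive (LSK), a compartment that holds haematopoietic stem cells and multipotent progenitors. The only groups that the study set apart were tdTomato-positive and tdTomato-negative cells, with 1 hashtagged sample of each per mouse, and 10x Genomics droplet chemistries, GEM-X and v3.1, between which each of the 4 hashtagged samples was divided. Per the labels' protocols, positive cells of both mice were sorted into a common tube and negative cells into another, so gate and sorting tube cannot be told apart. No mouse without Cre or tamoxifen was used here, so both gates share the genotype and the treatment.

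Hox genes encode transcription factors that bind DNA through the homeodomain, a fold of helices of which the third lies in the major groove. The genes sit in clusters in which the order along the chromosome follows the order of use along the body axis, and genes with the same number in different clusters are paralogues that descend from a common ancestor. In blood formation, genes of the Hoxa cluster are best known for maintaining stem and progenitor cells, Hoxa9 above all, and Hoxb4 is known for enlarging the stem cell pool when overexpressed. Hox proteins gain specificity by binding DNA together with TALE homeodomain proteins of the Meis and Pbx families. Loss of Hoxa9 expression normally accompanies differentiation.

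In paralogue groups 9 and 4 a single cluster supplied nearly all transcripts. The little-used partners of Hoxa9 and Hoxb4, namely Hoxb9 and Hoxa4, are shown here by their homeoboxes, the coding stretch of the homeodomain, since they resemble a highly expressed paralogue in sequence and not in use. The sequences are 180 bases each, read 5′ to 3′ on the coding strand from GENCODE M21 transcripts (GRCm38, mm10), and the capitals mark the 51 bases that encode the recognition helix.
Hoxb9: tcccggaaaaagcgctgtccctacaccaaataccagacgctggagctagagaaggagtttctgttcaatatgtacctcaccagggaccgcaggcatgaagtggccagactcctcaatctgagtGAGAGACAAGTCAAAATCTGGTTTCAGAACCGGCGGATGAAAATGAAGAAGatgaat
Hoxa4: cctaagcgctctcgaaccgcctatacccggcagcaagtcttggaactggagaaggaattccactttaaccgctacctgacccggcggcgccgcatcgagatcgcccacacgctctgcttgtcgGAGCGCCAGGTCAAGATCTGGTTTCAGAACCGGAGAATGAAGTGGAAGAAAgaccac
The Hoxa9 and Hoxb9 homeoboxes were identical at 81.67% of bases, and those of Hoxa4 and Hoxb4 at 82.78%. Hoxa9 (ENSMUSG00000038227) lies on the minus strand of mm10 chromosome 6, at chr6:52223100-52231089, and Hoxb9 (ENSMUSG00000020875) on the plus strand at chr11:96271457-96276595. Hoxa4 (ENSMUSG00000000942) lies at chr6:52189671-52191753 and Hoxb4 (ENSMUSG00000038692) at chr11:96318267-96321638. The Hoxa cluster spans chr6:52155590-52260880, the Hoxb cluster chr11:96194316-96368256, the Hoxc cluster chr15:102921103-103036852 and the Hoxd cluster chr2:74668310-74765142.

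Counts are unique molecular identifiers (UMIs), each standing for 1 captured transcript 3′ end, so levels are given as CPM, the UMIs of a gene scaled to the total UMIs of the cells summed, with no division by gene length. After filtering, 32330 cells with exactly 1 hashtag were used, 17986 from GEM-X and 14344 from v3.1, and the chemistries shared 0 barcodes. The hashtagged samples held 3867 to 12386 cells with medians of 7731 to 9315 UMIs. Cell groups were built without any Hox, TALE, Hox regulator or Hox-cluster non-coding gene and named from marker lists. This gave 6928 HSC-like cells (clusters 3, 7 and 8), 1026 lymphoid-like, 1814 megakaryocyte-platelet-like, 432 neutrophil-like, 194 B cell-like, 80 T and NK cell-like and 164 erythroid-like cells. The names rest on markers alone, and 9 clusters stayed unnamed. The neutrophil-like cluster raised 9 of 9 neutrophil markers, but also 14 of 15 granulocyte-monocyte, 7 of 7 mast-basophil and 8 of 8 macrophage-dendritic markers. Its name therefore covers only part of its markers, and other myeloid cells may be among these cells. Cluster 3, which gave 2867 of the HSC-like cells, was led by interferon-response genes such as Ifit1 and Rsad2. Beside 11 of 15 HSC markers it raised 4 of 5 macrophage-dendritic markers, so its name too covers only part of its markers. The T and NK cell-like cluster raised 12 of 12 T and NK cell markers and also 10 of 12 lymphoid markers. Cluster 5, led by immunoglobulin genes, was left unnamed although 13 of its 15 HSC markers were raised. A lineage-negative gate would remove most mature cells of the lineage-marked classes, so these names describe transcripts and not surface phenotypes.

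Hox expression was almost wholly a matter of the Hoxa and Hoxb clusters. Of 93162 Hox UMIs, 79697 (85.5%) came from Hoxa and 13348 (14.3%) from Hoxb, while Hoxc gave 116 UMIs and Hoxd gave 1, from Hoxd4. No UMI of 14 members was found in any cell: Hoxa11, Hoxa13, Hoxb13, Hoxc11, Hoxc12, Hoxc13 and all of Hoxd other than Hoxd4. Paralogue groups 11 to 13, the posterior ends of the clusters, were thus at 0 UMIs throughout, which allows 3 UMIs per gene in all cells together. A further 12 members had 1 to 59 UMIs, which left 13 members with 265 to 39953 UMIs. By paralogue group, group 9 held 42.9% of Hox UMIs, group 7 held 21.5%, group 3 held 15.99% and group 4 held 6.81%.

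**Figure D1:**
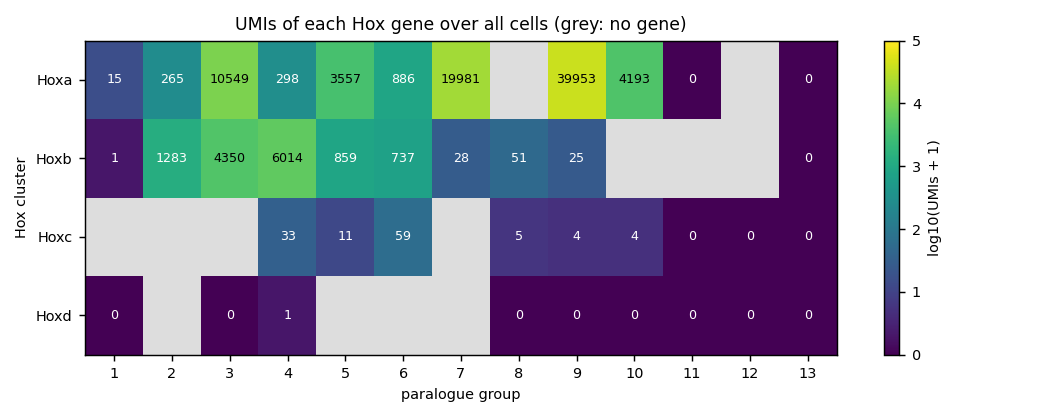
UMIs of each Hox gene summed over all 32330 cells, by paralogue group (columns) and cluster (rows), coloured by log10(UMIs + 1), with grey where the mouse has no gene. The filled part runs from group 2 to group 10 of Hoxa and from group 2 to group 6 of Hoxb, with Hoxa9 highest at 39953 UMIs.

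Hoxa9, the leading member, was at 121.2 and 129.9 CPM in the tdTomato-positive and tdTomato-negative samples of mouse 1 and at 118.5 and 119.1 CPM in those of mouse 2. Its mean of 122.2 ± 5.30 CPM (SD over 4 hashtagged samples) made up 42.9% of all Hox UMIs, and a Hoxa9 UMI was found in 19834 cells. Hoxa7, the neighbouring central member of the cluster, was at 59.2 and 62.7 CPM in mouse 1 and 61.3 and 62.1 CPM in mouse 2, in the same order. The 4 samples lay within a narrow band for both genes, and their ranges did not touch.

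Hoxa3, an anterior member known for pharyngeal and thymus development, was at 30.6 and 33.0 CPM in mouse 1 and 33.1 and 32.9 CPM in mouse 2. Hoxa10, a posterior member that can block myeloid differentiation when overexpressed, was at 11.03 and 12.3 CPM in mouse 1 and 14.6 and 13.98 CPM in mouse 2. Hoxa5 was at 9.82 and 10.9 CPM in mouse 1 and 10.8 and 11.6 CPM in mouse 2. The ranges of Hoxa10 and Hoxa5 overlapped, although Hoxa10 was the higher in each of the 4 samples. Hoxa6 lay at 2.56 to 2.93 CPM and Hoxa2 at 0.697 to 0.939 CPM.

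Of the Hoxb cluster, Hoxb4 was the highest, at 17.1 and 17.9 CPM in mouse 1 and 18.8 and 19.9 CPM in mouse 2. Hoxb3 was at 10.8 and 12.1 CPM in mouse 1 and 15.2 and 15.5 CPM in mouse 2. GENCODE M21 places the antisense gene Hoxb3os over 52.93% of the exon bases of Hoxb3 and 27.32% of those of Hoxb2, and no source used here states whether counting used strand, so reads of these genes cannot be told apart. Hoxb2 was at 2.83 and 2.56 CPM in mouse 1 and at 5.71 and 5.47 CPM in mouse 2. Hoxb5, which has served as a reporter gene of long-term stem cells, was at 2.16 and 1.89 CPM in mouse 1 and 3.30 and 3.53 CPM in mouse 2. Hoxb6 was at 1.54 and 1.73 CPM in mouse 1 and 2.90 and 2.99 CPM in mouse 2. For all 5 of these Hoxb genes both samples of mouse 2 lay above both of mouse 1, as they did for Hoxa2 and Hoxa10, while for Hoxa9 and Hoxa4 both samples of mouse 1 lay above. These levels are over all cells, and the mice differed in their cells, with 835 lymphoid-like cells in mouse 1 and 191 in mouse 2. Within HSC-like cells Hoxb4 was at 28.0 CPM in mouse 1 and 27.5 CPM in mouse 2. Hoxb2, Hoxb3, Hoxb5 and Hoxb6 stayed higher in mouse 2 there. These are differences between single animals, and neither they nor the part of cell composition were tested.

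The partner cluster that supplied a paralogue group changed along the clusters. In group 4, Hoxb4 was at 18.4 CPM against 0.903 CPM for Hoxa4, and Hoxc4 and Hoxd4 had 33 UMIs and 1 UMI. In group 2 the Hoxb member was also the higher, with 4.15 CPM for Hoxb2 against 0.816 CPM for Hoxa2. Hoxa led in groups 3 (32.4 CPM against 13.4), 5 (10.8 against 2.72) and, by far, 7 (61.3 against 0.0937 for Hoxb7) and 9 (122.2 against 0.0635 for Hoxb9). In group 6 the ranges over the 4 samples were 2.56 to 2.93 CPM for Hoxa6 and 1.54 to 2.99 CPM for Hoxb6 and overlapped. The homeoboxes printed above thus belong to the weakly expressed partner of each pair, from Hoxb in group 9 and from Hoxa in group 4.

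The comparison of lineage-primed classes with HSC-like cells asked how Hox use differs once cells show lineage markers. Counts were summed per mouse and cell group and tested with edgeR's quasi-likelihood test with the mouse as a block and Benjamini-Hochberg adjustment over 15122 genes. Only 13 of the 39 members passed the filter on low counts, and a member can pass it through the HSC-like sums alone, so counts of members are descriptions. Errors of fold changes are standard errors of the fit (n = 2 mice). All cell groups entered a common fit and shared an estimate of the spread. The p-values thus measure only what remained between sums of these 2 animals after the mouse block, pooled over cell groups. Very small p-values therefore do not stand for replication in further mice. Across all cell groups 12 of the 13 members were called, beside 93.2% of all genes tested, and Hoxa4 was not (adjusted p = 0.53).

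In lymphoid-like cells the Hoxb genes were lower, while Hoxa9 and Hoxa7, the leading Hoxa genes, did not pass the test. Hoxa9 was at 182.5 and 168.0 CPM in the lymphoid-like cells of mouse 1 and mouse 2, against 196.7 and 180.8 CPM in their HSC-like cells, a log2 fold change after normalization of 0.05 ± 0.06 (edgeR adjusted p = 0.48). Hoxa7 was at 68.0 and 69.7 CPM against 79.0 and 82.5 CPM (−0.08 ± 0.07, edgeR adjusted p = 0.30). A p that misses the threshold does not show that the levels are equal, and the Hoxa9 call depended on how cells were grouped. Hoxa9 was called higher, by 0.31, 0.17 and 0.14, at Leiden resolutions of 0.5 and 1.5 and with the Hox and related genes used in clustering. It was also called higher, by 0.18, with interferon-led cluster 3 taken out of the HSC-like cells, in which case Hoxa7 was called lower (−0.18). Hoxa10 fell by 1.46 on the log2 scale (SE 0.14, edgeR adjusted p = 4.34e-11), from 26.9 and 27.9 CPM to 8.80 and 8.76 CPM. Hoxa3 fell by 0.67 (SE 0.09), Hoxa5 by 0.69 (SE 0.16) and Hoxa6 by 0.77 (SE 0.25, edgeR adjusted p = 0.00879). The Hoxa6 call was lost in 4 alternatives, among them without mouse 1 (−0.44, adjusted p = 0.513).

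All 5 tested Hoxb members fell in lymphoid-like cells. Hoxb4 was at 11.8 and 13.3 CPM there against 28.0 and 27.5 CPM in HSC-like cells (log2 fold change −1.02 ± 0.11, edgeR adjusted p = 6.98e-10). Hoxb3 was at 5.62 and 5.71 CPM against 23.7 and 27.7 CPM (−1.96 ± 0.17, edgeR adjusted p = 2.36e-12). In both mice the lymphoid-like values lay below every HSC-like value for these genes. Hoxb2 was at 0.363 and 0.762 CPM against 7.23 and 12.5 CPM (−4.04 ± 0.39, edgeR adjusted p = 3.02e-11), and Hoxb6 fell by 2.88 (SE 0.41). Hoxb5 had 3 UMIs in 1026 lymphoid-like cells, a ratio to the HSC-like level of 0.0273 with a 95% counting interval of 0.00562 to 0.0796. In all, 9 of 13 members were lower and 0 higher, beside 29.9% and 29.6% of all genes, and the median over the 13 was −0.77 against −0.04 over all genes.

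A lower CPM can come from fewer Hox transcripts per cell or from more of other RNA, which CPM cannot tell apart. Lymphoid-like cells held a median of 13127.5 UMIs against 6837 in HSC-like cells. Per cell, Hoxa9 was at 2.41 and 2.31 UMIs in lymphoid-like cells of mouse 1 and mouse 2 and at 1.48 and 1.23 UMIs in HSC-like cells. Hoxb4 per cell was at 0.156 and 0.183 UMIs against 0.211 and 0.188 UMIs. Hoxb2 was at 0.00479 and 0.0105 UMIs per cell against 0.0545 and 0.0854 UMIs. Of the 11 members with at least 200 HSC-like UMIs, 6 were lower per cell in both mice in lymphoid-like cells and 3 were higher, whereas all 11 were lower in unnormalized CPM.

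Megakaryocyte-platelet-like cells were lower in nearly every member, with the smallest called fold changes in Hoxb4, Hoxb2 and Hoxa7. Hoxa9 was at 63.1 and 68.4 CPM in mouse 1 and mouse 2 (log2 fold change −1.42 ± 0.07, edgeR adjusted p = 2.51e-20), and Hoxa3 at 15.4 and 17.3 CPM (−1.81 ± 0.09). Hoxa7 fell by 0.87 (SE 0.06). Hoxb4 was at 15.96 and 17.9 CPM (−0.62 ± 0.09, edgeR adjusted p = 2.35e-07). Hoxb2 was at 4.93 and 6.52 CPM (−0.71 ± 0.18, edgeR adjusted p = 0.000935), and without the mouse block, without mouse 2 or in GEM-X cells alone it no longer passed (adjusted p = 0.124, 0.145 and 0.0525). Hoxb2 in this class lay below the HSC-like value of the same mouse in both mice. Here 12 of 13 members were lower and 0 higher, beside 31.9% and 28.1% of all genes, with medians of −1.40 and −0.07.

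**Figure D2:**
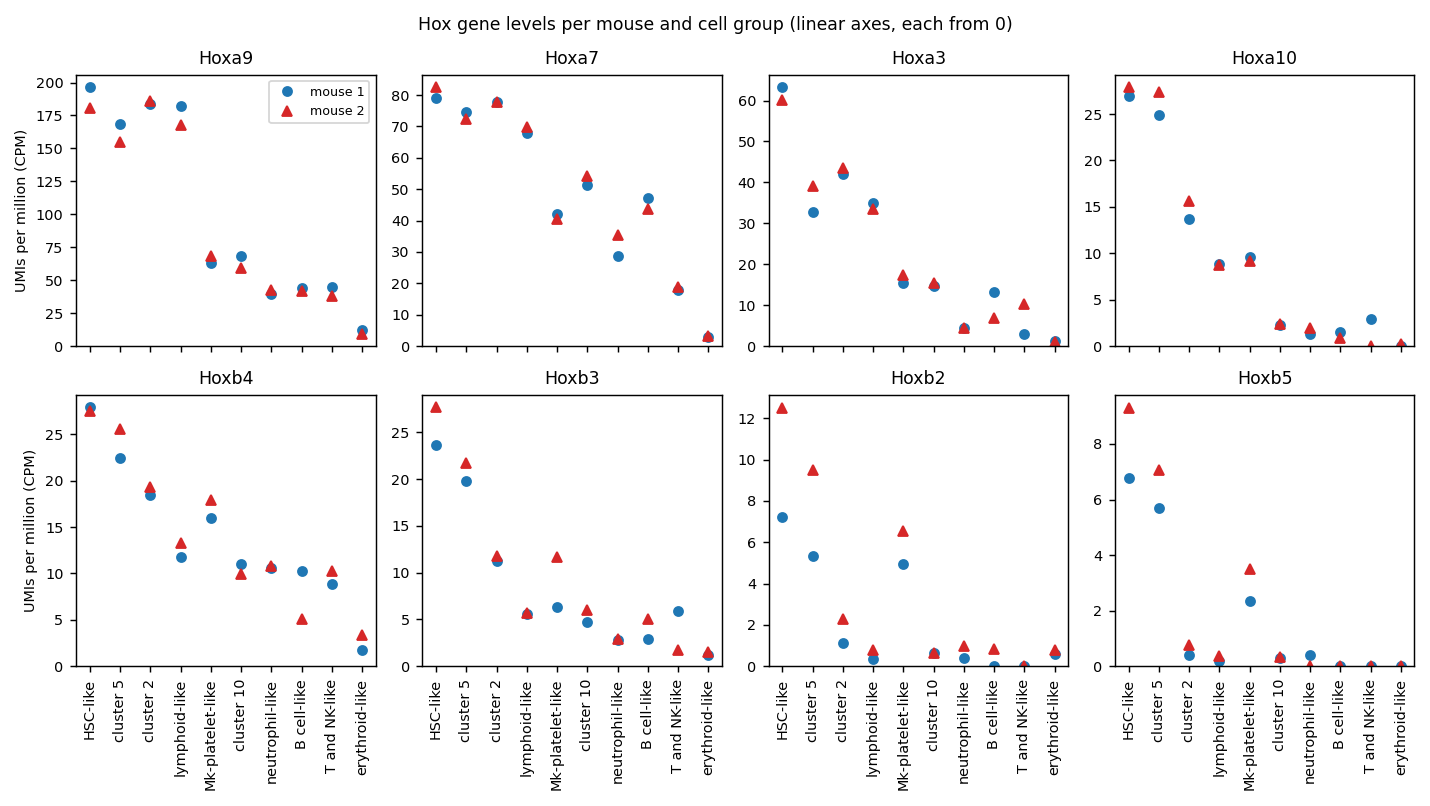
Levels of 8 Hox genes (CPM, linear axes from 0) in 10 cell groups, with a circle for mouse 1 and a triangle for mouse 2. Hoxa9 and Hoxa7 stay near their HSC-like level in cluster 2 and in lymphoid-like cells, while Hoxb2 and Hoxb5 are low there. In megakaryocyte-platelet-like (Mk-platelet-like) cells Hoxb2 is at 4.93 and 6.52 CPM, below the HSC-like value of the same mouse.

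Neutrophil-like cells were low in Hoxa3, Hoxa10 and most Hoxb members, with smaller fold changes in Hoxa7 and Hoxb4. Hoxa7 was at 28.7 and 35.3 CPM (log2 fold change −0.95 ± 0.08, edgeR adjusted p = 1.56e-12) and Hoxb4 at 10.6 and 10.8 CPM (−0.92 ± 0.13, edgeR adjusted p = 6.22e-08). Hoxa9 was at 39.5 and 42.3 CPM (−1.79 ± 0.08, edgeR adjusted p = 1.80e-20). Hoxa3 was at 4.42 and 4.46 CPM (−3.35 ± 0.15) and Hoxa10 at 1.34 and 1.91 CPM (−3.71 ± 0.23). Hoxb5 and Hoxb6 had 3 UMIs each, at 0.0351 (0.00723 to 0.1025) and 0.0505 (0.0104 to 0.1475) of the HSC-like level. In this class 12 of 13 members were lower and 0 higher, beside 37.4% and 34.4% of all genes, with medians of −2.69 and −0.13. These cells held a median of 25454.5 UMIs, and 2 of 11 members were higher per cell in both mice, Hoxa7 and Hoxb4.

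B cell-like and T and NK cell-like cells were few, and Hoxa7 had the smallest called fold change in the former. Hoxa7 was at 47.04 and 43.8 CPM in B cell-like cells (log2 fold change −0.68 ± 0.14, edgeR adjusted p = 0.000138, and 0.0729 without mouse 2), about level with Hoxa9 at 44.1 and 42.1 CPM (−1.96 ± 0.15, edgeR adjusted p = 5.13e-14). Hoxa6, Hoxb5 and Hoxb6 had 0 UMIs there and were at least 3.14-fold, 5.02-fold and 3.49-fold lower, taking 3 UMIs over the class as the floor. In total 11 of 13 members were lower and 0 higher in B cell-like cells, beside 25.2% and 22.5% of all genes. The median was −2.59 against −0.18 over all genes. It was −2.15 over 12 members, with 3 at 0 UMIs set at their bound. Hoxa2, also at 0 UMIs, was left out there because its bound lay above its HSC-like level. In T and NK cell-like cells Hoxa9 was at 44.5 and 37.8 CPM (−2.18 ± 0.20, edgeR adjusted p = 4.34e-11) and Hoxa7 at 17.8 and 18.9 CPM (−2.09 ± 0.25). Hoxb2, Hoxb5 and Hoxb6 had 0 UMIs in these 80 cells and were at least 3.04-fold, 2.47-fold and 1.72-fold lower. There 10 of 13 members were lower and 0 higher, beside 12.3% and 12.7% of all genes, and without mouse 2 the count was 5. The median was −2.98 against −0.11 over all genes. With 3 members at 0 UMIs set at their bound and Hoxa2 again left out, it was −1.85 over 12 members.

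Erythroid-like cells had the lowest level of the Hoxa cluster among the named classes. Hoxa9 was at 11.95 and 8.91 CPM (log2 fold change −3.81 ± 0.14, edgeR adjusted p = 1.51e-23), Hoxa7 at 2.85 and 3.05 CPM (−4.32 ± 0.19) and Hoxa3 at 1.14 and 1.02 CPM (−5.42 ± 0.27). Hoxb4 was at 1.71 and 3.31 CPM (−2.88 ± 0.24, edgeR adjusted p = 2.31e-13). Hoxa10 had 1 UMI in 164 cells, a ratio of 0.00642 (0.000163 to 0.0358), and Hoxb5 and Hoxb6 had 0 UMIs and were at least 15.3-fold and 10.6-fold lower. In this class 11 of 13 members were lower and 0 higher, beside 40.8% and 31.9% of all genes. The median was −3.81 against −0.34 over all genes, or −3.79 with members at 0 UMIs set at their bound. All 11 members with at least 200 HSC-like UMIs were also lower per cell in both mice, although these cells held a median of 34664.5 UMIs. Hoxa4, a weakly expressed paralogue of Hoxb4, was called in none of the 6 classes.

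**Figure D3:**
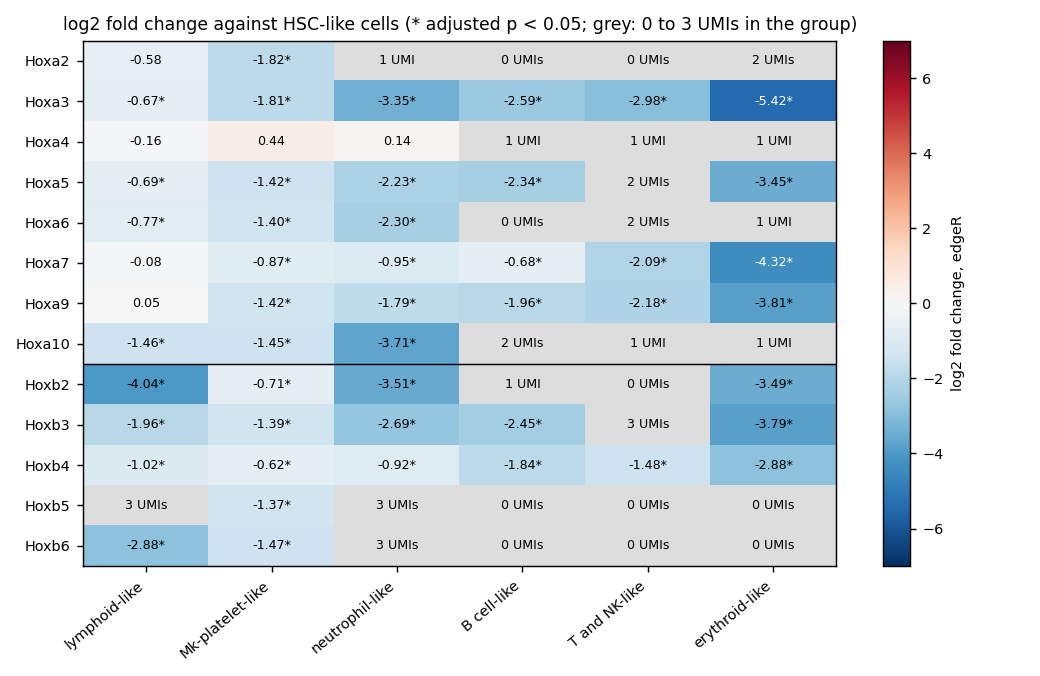
log2 fold change of the 13 tested members against HSC-like cells in the 6 named classes, with an asterisk where the edgeR adjusted p was under 0.05 and grey where a class held 0 to 3 UMIs. The rows above the line are Hoxa genes and those below it Hoxb genes; Hoxa9 is at 0.05 and Hoxb2 at −4.04 in lymphoid-like cells.

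The balance of the clusters differed between classes in both mice. The Hoxb cluster gave 17.0% of Hox UMIs in HSC-like cells (15.2% in mouse 1 and 18.6% in mouse 2). It gave 5.83% in lymphoid-like cells (5.65% and 6.63%) and 20.6% in megakaryocyte-platelet-like cells (18.2% and 22.2%). The share in lymphoid-like cells was thus below that in HSC-like cells of either mouse. The share in megakaryocyte-platelet-like cells was above the HSC-like share of the same mouse but overlapped the HSC-like range. With 2 mice a group an exact permutation test cannot go below p = 0.333, so none was run. In neutrophil-like cells the share was 15.2% and in B cell-like cells 10.4%, and the 119 Hox UMIs of erythroid-like cells are too few to place theirs (14.6% and 28.2%).

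Summed over the Hoxa cluster, HSC-like cells were at 391 and 378 CPM, lymphoid-like cells at 309 and 295 CPM and megakaryocyte-platelet-like cells at 140 and 146 CPM. Neutrophil-like cells were at 78.4 and 89.1 CPM, B cell-like cells at 112 and 96.1 CPM, T and NK cell-like cells at 74.2 and 72.1 CPM and erythroid-like cells at 19.9 and 14.2 CPM. Neutrophil-like and T and NK cell-like cells lay close together, and the others kept their order in both mice. Per cell the order was another: 4.08 and 4.06 UMIs in lymphoid-like cells, 2.95 and 2.58 in HSC-like cells, 2.05 and 1.92 in neutrophil-like cells and 1.63 and 1.51 in megakaryocyte-platelet-like cells.

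**Figure D4:**
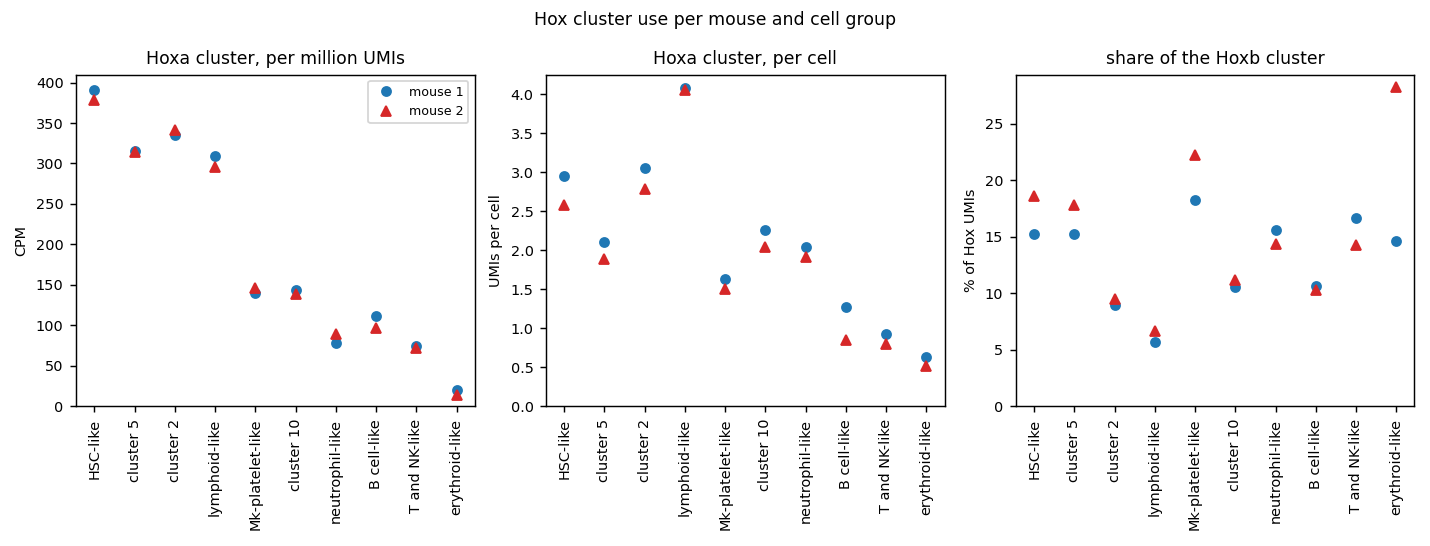
Summed level of the Hoxa cluster in CPM (left) and in UMIs per cell (middle), and the percentage of Hox UMIs from the Hoxb cluster (right), in 10 cell groups, with a circle for mouse 1 and a triangle for mouse 2. Lymphoid-like cells have the lowest Hoxb share, 5.65% and 6.63%, and the highest Hoxa level per cell, 4.08 and 4.06 UMIs.

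The paralogue groups shifted as well. Group 9 went from 40.7% of Hox UMIs in HSC-like cells to 55.3% in lymphoid-like cells, and group 3 went from 18.8% to 12.4%. Group 7 held 17.5% in HSC-like cells, 31.9% in neutrophil-like cells and 39.6% in B cell-like cells. Group 4, which is nearly all Hoxb4, held 6.29% in HSC-like cells, 10.2% in megakaryocyte-platelet-like cells and 12.1% in neutrophil-like cells. Group 10 went from 5.91% in HSC-like cells to 2.70% in lymphoid-like and 1.57% in neutrophil-like cells.

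To compare the number of Hox genes seen in a cell, each cell was thinned to 4000 UMIs, which left out 310 HSC-like, 20 lymphoid-like, 46 megakaryocyte-platelet-like and 6 neutrophil-like cells. At this depth a mean of 1.49 distinct Hox genes was seen per HSC-like cell, 1.06 per lymphoid-like cell, 0.670 per megakaryocyte-platelet-like cell and 0.350 per neutrophil-like cell. Without thinning the means were 2.26, 2.22, 1.502 and 1.55. A Hoxa9 UMI was found in 49.7% of thinned HSC-like cells (exact 95% interval 48.5 to 50.9%), 49.4% of lymphoid-like cells (46.3 to 52.5%) and 23.1% of megakaryocyte-platelet-like cells (21.2 to 25.2%). In erythroid-like cells the share was 3.68% (1.36 to 7.84%). Intervals cover counting error only. Unthinned, these shares were 66.3%, 82.6%, 45.4% and 25%, and free RNA in the droplets was not separated from expression.

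Of the unnamed clusters, 2 that were singled out after their values were seen are given as levels only. Cluster 2 (3324 cells, led by genes such as Wfdc17, Tlr7 and Cd33) had Hoxa9 at 183.8 and 185.8 CPM, Hoxb5 at 0.398 and 0.765 CPM and a Hoxb share of 9.09%. Cluster 10 (1310 cells, with Mcpt8, Irf8, Ctsg and Mpo among its leading genes) had Hoxa9 at 68.5 and 59.5 CPM, Hoxa7 at 51.5 and 54.1 CPM and a Hoxb share of 10.8%. Cluster 5, the group with raised HSC markers and immunoglobulin transcripts, had a Hoxb share of 17.0%, as did HSC-like cells.

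The 3 HSC-like clusters were not uniform in Hox use. Cluster 7 was the one in which all 15 HSC markers were raised, against 11 of 15 in clusters 3 and 8. Of the detected megakaryocyte-platelet markers 9 of 14 were raised in cluster 7, 7 of 13 in cluster 8 and 1 of 13 in cluster 3, the same order as the Hoxb shares below, and their part in these shares was not tested. Cluster 7 was singled out here after its Hox values were seen, so it is described without a test. The Hoxb share was 22.5% in cluster 7 (20.6% and 24.5% in the mice), 18.0% in cluster 8 (15.2% and 19.9%) and 12.4% in cluster 3 (11.8% and 13.1%). Hoxb5 was at 15.6 and 15.2 CPM in cluster 7, 5.37 and 9.74 CPM in cluster 8 and 1.87 and 4.54 CPM in cluster 3. Hoxb2 was at 14.9 and 22.7 CPM in cluster 7, 4.78 and 11.3 CPM in cluster 8 and 3.74 and 6.32 CPM in cluster 3. For both genes cluster 7 lay above clusters 3 and 8 in both mice. Hoxa9 had another order, with 233.0 and 230.3 CPM in cluster 3, 180.1 and 164.5 CPM in cluster 7 and 156.0 and 145.3 CPM in cluster 8. Hoxa7 was nearly level, at 75.9 to 84.7 CPM in all 3 clusters.

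Of 5 weakly expressed members of Hoxb and Hoxc, also singled out after their values were seen, many UMIs lay in cluster 7. Hoxb7, Hoxb8, Hoxb9, Hoxc4 and Hoxc6, which together had 196 UMIs, were found in 168 cells, and 89 of these lay among the 2038 cells of cluster 7. The share of cells with such a UMI was 4.37% in cluster 7 (exact 95% interval 3.52 to 5.35%), with 2.91% in mouse 1 and 5.76% in mouse 2. The intervals cover counting error only and not the spread between mice, and the values of both mice lay outside this one. The share was 0.244% in cluster 3 (0.0982 to 0.502%) and 0.741% in cluster 8 (0.416 to 1.22%). The median depths of clusters 7, 3 and 8 were 6445, 6642 and 7535 UMIs. In the deeper lymphoid-like cells 0 of 1026 had one, which allows up to 0.359%, and in megakaryocyte-platelet-like cells 7 of 1814 had one (0.386%). Hoxb8 was at 1.87 and 3.61 CPM in cluster 7 against 0.575 and 1.11 CPM over all HSC-like cells, cluster 7 included. Hoxc6 was at 1.72 and 2.25 CPM in cluster 7 against 0.575 and 0.753 CPM over the same HSC-like cells. Hoxb9 was at 0.431 CPM in mouse 1 and 2.70 CPM in mouse 2 in cluster 7, so 18 of its 21 UMIs in that cluster came from mouse 2. The other weak members of these clusters had 1 to 11 UMIs in all cells, of which cluster 7 held 0 of 1 for Hoxb1, 2 of 11 for Hoxc5, 2 of 5 for Hoxc8, 0 of 4 for Hoxc9 and 4 of 4 for Hoxc10.

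Of these cells 153 held 1 of the 5 members, 13 held 2 and 2 held 3. Among 9 endothelial and stromal markers, Cdh5, Lepr, Col3a1 and Pdgfra were at 0 UMIs in the 168 cells. The summed level of the 9 was 98.2 CPM there and 81.7 CPM in HSC-like cells, mostly from Emcn and Pdgfrb. Cxcl12 had 3 UMIs and Kdr 9 UMIs in the 168 cells, or 2.06 and 6.18 CPM, against 0.141 and 2.12 CPM in HSC-like cells. The part of such transcripts in the result was not tested.

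**Figure D5:**
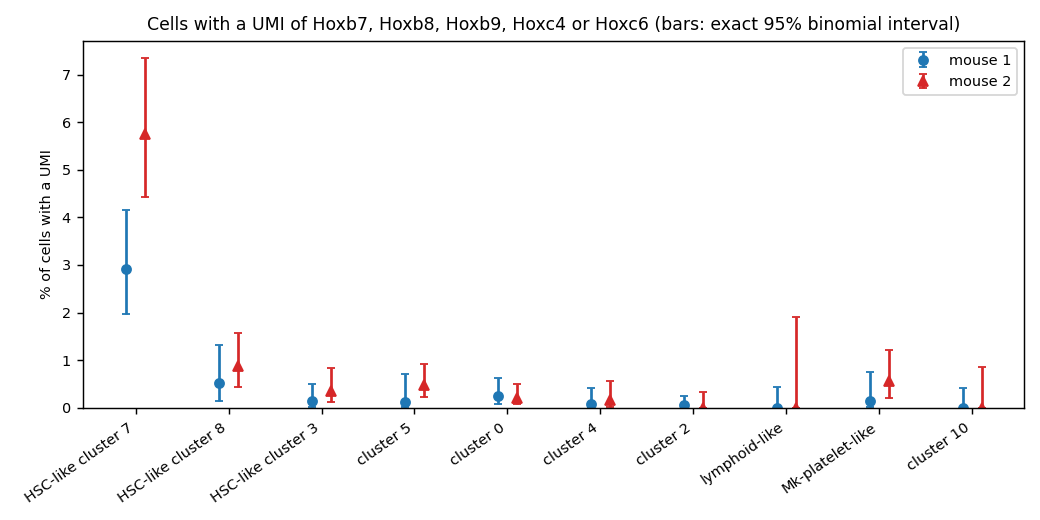
Percentage of cells with at least 1 UMI of Hoxb7, Hoxb8, Hoxb9, Hoxc4 or Hoxc6 in 10 cell groups, for mouse 1 (circles) and mouse 2 (triangles), with exact 95% binomial intervals that cover counting error only. Cluster 7 of the HSC-like cells is at 2.91% and 5.76%, and lymphoid-like cells and cluster 10 are at 0.

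No member passed the test between the tdTomato gates, the study's own contrast. Over all cells 0 of 15 tested members were called by edgeR, beside 0.796% of all genes, 0 had an unadjusted p under 0.05, and DESeq2 called 0. Within HSC-like cells the count was again 0 of 15 by edgeR, beside 0.0145% of all genes, with 0 at an unadjusted p under 0.05 and 0 by DESeq2. Hoxa9 differed by −0.04 ± 0.03 over all cells and by −0.01 ± 0.04 within HSC-like cells (SE, 2 mice; edgeR adjusted p = 0.955 and 0.996). Hoxb4 differed by −0.07 ± 0.05 and −0.16 ± 0.09 (edgeR adjusted p = 0.986 and 0.957), and Hoxb5 by 0.05 ± 0.14 and −0.05 ± 0.17 (edgeR adjusted p = 0.999 and 0.995). Within HSC-like cells Hoxa9 was at 194 and 197 CPM in the positive and negative samples of mouse 1 and at 180.045 and 181 CPM in those of mouse 2. The limit of detection lies above these errors, since the Hoxb4 difference within HSC-like cells exceeded its error and was not called. With 2 mice, equal levels are therefore not shown.

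The chemistries, told apart by the names of their matrices, differed in 10 members. With the hashtagged sample as a block over 8 sums, 5 of 13 members were lower in GEM-X and 5 were higher, beside 36.6% and 38.4% of all genes, and with 1 library per chemistry this compares these libraries. The lower ones were Hoxa7 (−0.21 ± 0.03), Hoxb3 (−0.34 ± 0.05), Hoxb4 (−0.31 ± 0.04), Hoxb5 (−0.49 ± 0.11) and Hoxb6 (−0.63 ± 0.12). The higher ones were Hoxa9 (0.31 ± 0.02), Hoxa3 (0.29 ± 0.04), Hoxa5 (0.23 ± 0.05), Hoxa6 (0.85 ± 0.12) and Hoxa2 (1.16 ± 0.21). The counts of 5 lower and 5 higher are close to the shares of all genes, so they are no result about the members. Of those that passed, the Hoxb members were all lower in GEM-X, and 5 of the 6 Hoxa members were higher. This split was not tested. Hoxa9 was at 133 CPM in GEM-X and 109 CPM in v3.1, and Hoxb4 at 16.8 and 21.3 CPM. The share of the Hoxb cluster in HSC-like cells was 20.4% in v3.1 cells alone. Among HSC-like cells, Hoxb4 was at 24.2 CPM in GEM-X and 33.4 CPM in v3.1, and Hoxa9 at 200.4 and 169.6 CPM. Hoxb shares thus depend on the chemistry, and a share over both mixes them.

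Among the TALE cofactors, which bind DNA beside Hox proteins, Meis1 and Pbx3 each passed the test in 5 of the 6 classes. Of 9 listed, 8 were tested, and 4 were lower and 2 higher in lymphoid-like cells, 2 and 4 in megakaryocyte-platelet-like, 6 and 0 in neutrophil-like, 5 and 1 in B cell-like, 3 and 0 in T and NK cell-like and 5 and 1 in erythroid-like cells. Over all genes the shares lower and higher were 29.9% and 29.6% in lymphoid-like, 31.9% and 28.1% in megakaryocyte-platelet-like, 37.4% and 34.4% in neutrophil-like, 25.2% and 22.5% in B cell-like, 12.3% and 12.7% in T and NK cell-like and 40.8% and 31.9% in erythroid-like cells. Meis1, a Hoxa9 partner, was at 1231 and 1362 CPM in HSC-like cells, and fell in lymphoid-like cells by 1.38 (SE 0.09), in neutrophil-like cells by 3.41 (SE 0.11) and in erythroid-like cells by 5.21 (SE 0.15). In megakaryocyte-platelet-like cells Meis1 was at 1078 and 1141 CPM and did not pass (−0.13 ± 0.08, edgeR adjusted p = 0.173). Pbx3 rose there by 0.60 ± 0.08 (edgeR adjusted p = 1.54e-08) and fell in lymphoid-like cells by 1.12 (SE 0.11). Meis2 was at 8.61 and 7.36 CPM in HSC-like cluster 7 and at most 0.628 CPM in clusters 3 and 8.

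Regulators of Hox genes, the trithorax and polycomb groups and their partners, were counted in the same way. Of 32 listed, 29 were tested, and 8 were lower and 10 higher in lymphoid-like cells, 12 and 9 in megakaryocyte-platelet-like, 14 and 6 in neutrophil-like, 6 and 9 in B cell-like, 2 and 4 in T and NK cell-like and 14 and 10 in erythroid-like cells. Several of these counts are near the shares of all genes given above (in lymphoid-like cells 29.9% lower and 29.6% higher), so the counts are no result about the list. Ezh2, the catalytic polycomb subunit of dividing cells, rose in all 6 classes, by 2.15 ± 0.07 in lymphoid-like, 1.90 ± 0.07 in megakaryocyte-platelet-like, 1.71 ± 0.07 in neutrophil-like and 3.17 ± 0.08 in B cell-like cells. Cbx7, a polycomb reader of histone methylation, fell in 5 of the 6 classes, among them by 1.14 (SE 0.22) in lymphoid-like, 1.12 (SE 0.18) in megakaryocyte-platelet-like and 2.47 (SE 0.31) in neutrophil-like cells. Ezh1, the other catalytic subunit, fell in 5 of the 6 classes, among them by 1.03 (SE 0.08) in megakaryocyte-platelet-like and 1.47 (SE 0.12) in neutrophil-like cells. Kmt2a, the methyltransferase that maintains Hox transcription, fell in all 6 classes relative to total UMIs, among them by 0.69 (SE 0.10) in T and NK cell-like cells. Per cell, Kmt2a was at 3.02 UMIs in neutrophil-like, 3.68 in erythroid-like, 2.76 in B cell-like and 2.71 in T and NK cell-like cells. These class values are over both chemistries, whereas HSC-like cells held 3.79 UMIs per cell in GEM-X and 1.43 in v3.1. A fall per cell is thus not shown for these 4 classes.

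Of 10 non-coding RNA genes of the Hox clusters 4 were tested, and 2 of them, Hoxb5os and Hoxb3os, were called lower in all 6 classes, where 12.3% to 40.8% of all genes were lower. In lymphoid-like cells Hoxb5os fell by 3.196 (SE 0.36) and Hoxb3os by 1.66 (SE 0.22), beside the falls of Hoxb5 and Hoxb3. In megakaryocyte-platelet-like cells the falls were 1.52 (SE 0.22) and 0.61 (SE 0.16). Hoxb5os shares 100 exon bases with Hoxb5 on the opposite strand. Hoxaas3, antisense to Hoxa7, was at 4.81 and 5.98 CPM in HSC-like cells and 3.54 and 6.09 CPM in lymphoid-like cells and did not pass there (edgeR adjusted p = 0.449).

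Across the 16 cell groups the members varied together to different degrees, which is a description of groups that share libraries. Pearson's r of log2(CPM + 1) was 0.96 between Hoxb3 and Hoxb6, 0.95 between Hoxb5 and Hoxb6 and 0.95 between Hoxa3 and Hoxa9. It was 0.48 between Hoxa7 and Hoxb2 and 0.57 between Hoxa9 and Hoxb2. Among 8976 genes outside the Hox list, the 5 with the pattern most like Hoxa9 were Oas1a (r = 0.954), Cep19, Afap1l1, Cyp2j9 and Mark4 (0.938). Those most like Hoxb4 were Stap1 (0.977), Def6, Cyp4v3, Akr1b10 and Casp4 (0.971).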

How the data were processed

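Raw UMI counts per gene and cell barcode were deposited as 1 matrix per chemistry; per the file headers, Cell Ranger 8.0.1 wrote the GEM-X matrix and 7.1.0 the v3.1 matrix, whereas the submitters' processing notes name version 7.0.0 and mm10. Barcodes with at least 1000 genes, at most 10% mitochondrial counts and exactly 1 hashtag (Gaussian mixture) were kept. Cells were clustered with scanpy 1.11.5 and leidenalg 0.10.2 (resolution 1, 2000 variable genes, 30 components) without the reported genes. Naming a cluster took 3 or more markers, and 66.7% of its detected markers, at 0.5 log2 above the other cells; Scrublet calls were kept and left out in an alternative. Sums of counts were tested with edgeR 4.0.16 (TMM, filterByExpr, quasi-likelihood, Benjamini-Hochberg), DESeq2 1.42.0 being an alternative. Mouse is the block, since same-numbered samples come from 1 animal. Members of at least 5 CPM or called in a contrast were described per sample, with up to 4 called genes per other list and contrast, Kmt2a, Ezh1 and Cbx7 counts being added after their values were seen. The fitting was tested on simulated data. The members and lists were chosen with earlier results of these data known. One cofactor and some sequences are not reported here.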

Additional observations from a re-analysis of the deposited data

How the results depend on the processing

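Among the classes and chemistries, no called fold change or count changed direction under the alternatives run, none of which scaled per cell. Differences between the gates, none of them called, could vary in sign. In GEM-X cells the log2 difference of Hoxa10 was −0.18 in mouse 1 and 0.11 in mouse 2. Per cell, Hoxa7 and Hoxb4 were higher in neutrophil-like than in HSC-like cells of both mice (0.748 and 0.760 against 0.596 and 0.563 UMIs, and 0.276 and 0.233 against 0.211 and 0.188 UMIs), although lower in the fit. Leaving out a mouse gave 5 to 9 T and NK cell-like members called lower (10 with both mice), and a Hoxb share in lymphoid-like cells of 5.65% to 6.63%. Without the replicate block 2 members were lower in GEM-X, where 5 were lower with it; among the classes, dropping the mouse block changed 1 count of members, from 12 to 11 in megakaryocyte-platelet-like cells. In v3.1 cells alone the Hoxb share was 20.4% in HSC-like, 23.6% in megakaryocyte-platelet-like and 16.95% in neutrophil-like cells, and in GEM-X cells alone 14.03% in the last. Thinning to 2000 UMIs gave 0.828, 0.545, 0.358 and 0.194 distinct Hox genes per HSC-like, lymphoid-like, megakaryocyte-platelet-like and neutrophil-like cell, which fewer UMIs per cell produce by construction. At 4000 UMIs neutrophil-like cells gave 0.385 in GEM-X and 0.302 in v3.1. The cause of the chemistry differences was not tested. Over all genes the gates gave 132 calls, and 6 with DESeq2, 208 with no filter, 0 with no replicate block, 0 to 1 without a hashtagged sample, 1 in GEM-X, 61 in v3.1 and 73 without Scrublet calls. Within HSC-like cells they gave 2, and 0 to 9 over alternatives. T and NK cell-like cells gave 3775 calls, and 2175 without mouse 2. That class could not be fitted in either chemistry alone or at Leiden resolution 0.5. With 2 mice, small differences are not detectable.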
